A study of Mus musculus with 8 samples.

Results

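Prtn3 and 9 other mRNAs of neutrophils, Elane, Mpo, Ctsg, Ngp, Camp, Ltf, Mmp8, S100a8 and S100a9, were examined in the liver arrays of 8 mice. Each of the 10 genes was read by 1 probe set, a group of short array probes against 1 transcript, out of 45101 probe sets and 18193 named genes on the Affymetrix mouse 430 2.0 array. None of these probe sets was shared with another gene. All 10 were chosen on these same arrays: Prtn3 was among the mRNAs that the study listed as lower in mutant livers, and the other genes were grouped with it when their differences between the genotypes were already known. Those differences are therefore described here without a test.

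The arrays compared 4 txnrd1cond/+;albCre0 livers (animals 70, 71, 80 and 82) with 4 txnrd1cond/-;albCre1 livers (animals 69, 72, 73 and 81), called txnrd1cond/+ and txnrd1-/- here. Every mouse was a young adult male, singly housed before harvest in the early afternoon, and every mouse carried 1 conditional txnrd1 allele, which is functional until Cre removes part of it. The second allele was wild-type in the first group and null in the second, and the second group also carried the Cre transgene, which the first lacked. The albumin promoter drives this Cre in hepatocytes, so cells that come from the bone marrow are not its target: neutrophils in the second group are expected to keep 1 conditional and 1 null allele. The txnrd1 genotype thus differed in neutrophils too, and effects of the hepatocyte deletion, the null allele and the transgene cannot be told apart in this design. The 3 probe sets of Txnrd1 differed by log2 1.11 ± 0.26, -0.71 ± 0.19 and -0.41 ± 0.13 (SE) in txnrd1-/- against txnrd1cond/+ livers. Whether any of them reads the part that Cre deletes was not known, and they were not used to check the genotype labels. The deposited values are linear ratios of each probe set to about its median over the 8 arrays. A ratio of 1 is thus the middle of that probe set's own values, levels cannot be compared between genes, and whether a transcript stood above background is not shown.

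Neutrophils store antimicrobial proteins in granules that are filled in sequence while the cell matures in bone marrow. Azurophil granules come first, at the promyelocyte stage, and hold the serine proteases proteinase 3 (Prtn3), elastase (Elane) and cathepsin G (Ctsg) together with myeloperoxidase (Mpo), which makes hypochlorous acid. Specific and gelatinase granules follow, with lactoferrin (Ltf), which binds iron, the cathelicidin precursor (Camp), the neutrophilic granule protein (Ngp) and the collagenase Mmp8. S100a8 and S100a9 form calprotectin, a calcium- and zinc-binding complex that fills the cytosol of mature neutrophils and is also made by monocytes. The mRNAs of the azurophil proteins have mostly disappeared by the time a neutrophil enters the blood, whereas those of S100a8 and S100a9 are still abundant. In adult liver these transcripts are known mainly from blood and marrow-derived cells within the tissue.

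The genes that lie side by side allow a close comparison, since Prtn3 and Elane are immediate neighbours on chromosome 10, and S100a8 and S100a9 on chromosome 3, with 0 annotated genes between either pair. The 4 promoters are shown because the genes of one pair had unlike values in these livers and those of the other varied together. Each run is 300 bases, from 250 before to 50 after the annotated start, read 5′ to 3′ on the strand of the gene from the RefSeq promoters of GRCm38.p6, in which all 10 genes were found. Capitals mark GAGGAA, a core of PU.1 sites, AACGG, a core of Myb sites, and TTNNGNAA, the outline of a C/EBP site, each searched on either strand, and TATAA, searched on the strand of the gene. In these 4 promoters no marked strings overlapped. PU.1, Myb and C/EBP factors are known as drivers of granule genes.
Prtn3, chr10:79879417-79879716, plus strand: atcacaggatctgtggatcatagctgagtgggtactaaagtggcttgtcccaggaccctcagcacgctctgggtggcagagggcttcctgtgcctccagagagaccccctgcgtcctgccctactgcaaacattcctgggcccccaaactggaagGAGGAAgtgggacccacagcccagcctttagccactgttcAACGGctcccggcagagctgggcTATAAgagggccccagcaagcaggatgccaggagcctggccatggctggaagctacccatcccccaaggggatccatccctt
Elane, chr10:79886062-79886361, plus strand: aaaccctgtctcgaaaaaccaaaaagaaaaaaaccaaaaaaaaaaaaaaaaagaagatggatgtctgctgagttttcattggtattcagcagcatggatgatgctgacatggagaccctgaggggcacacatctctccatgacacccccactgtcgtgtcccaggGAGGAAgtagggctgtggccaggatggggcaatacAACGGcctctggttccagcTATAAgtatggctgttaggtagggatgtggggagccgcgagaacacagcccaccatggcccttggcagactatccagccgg
S100a8, chr3:90668821-90669120, plus strand: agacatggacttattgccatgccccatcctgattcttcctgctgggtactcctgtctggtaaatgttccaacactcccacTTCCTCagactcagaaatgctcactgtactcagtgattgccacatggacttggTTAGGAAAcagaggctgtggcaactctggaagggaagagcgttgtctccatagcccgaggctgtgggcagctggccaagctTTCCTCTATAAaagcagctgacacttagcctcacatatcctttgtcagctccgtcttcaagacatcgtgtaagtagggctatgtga
S100a9, chr3:90695672-90695971, minus strand: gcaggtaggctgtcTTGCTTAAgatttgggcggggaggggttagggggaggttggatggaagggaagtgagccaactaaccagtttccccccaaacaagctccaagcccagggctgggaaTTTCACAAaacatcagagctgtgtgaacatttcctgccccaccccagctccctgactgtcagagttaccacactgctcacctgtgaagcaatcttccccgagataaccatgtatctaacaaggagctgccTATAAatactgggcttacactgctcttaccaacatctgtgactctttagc

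The promoters of Prtn3 and Elane had the same layout. In Prtn3, GAGGAA began at -95, AACGG at -55 and TATAA at -32, counted from the annotated start, and in Elane these letters began at -85, -50 and -31. All 3 strings together, in any order and at any spacing, were in 188 of 32851 RefSeq promoters of this length (0.572%). Among the 10 genes they were in these 2. The combination counted is the one that these 2 promoters hold, so the count is a description. GAGGAA was in 7 of the 10 promoters and in 28.3% of all, AACGG in 2 of 10 and 17.4%, TTNNGNAA in 5 of 10 and 40.7%, and TATAA in 5 of 10 and 17.5%. S100a8 held the PU.1 core on the opposite strand at -170 and -36, a C/EBP outline at -117 and TATAA at -30, whereas S100a9 held C/EBP outlines on the opposite strand at -236 and -130 and TATAA at 1. These matches describe letters and not bound sites.

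Of the azurophil genes, Prtn3 was the one with a clear gap between the genotypes. Its ratios were 2.44, 1.36, 2.56 and 0.922 in txnrd1cond/+ animals 70, 71, 80 and 82, and 0.732, 0.578, 1.08 and 0.616 in txnrd1-/- animals 69, 72, 73 and 81. Animals 70 and 80 were the highest, animal 72 was the lowest, and the groups overlapped because txnrd1cond/+ animal 82 lay below txnrd1-/- animal 73. The means were 1.82 ± 0.805 and 0.752 ± 0.230 (SD, n = 4 each). On the log2 scale txnrd1-/- livers were lower by a difference of -1.20 ± 0.33 (SE), or 2.29-fold. Prtn3 thus stood at rank 4 from the lowest of 18193 genes in the comparison from which it was chosen. Within the animals numbered 69 to 73 the difference was -1.24. Within those numbered 80 to 82, where animal 81 was the only txnrd1-/- liver, it was -1.32. Both values reuse the livers on which Prtn3 was chosen, so they are a description and no further support. The labels do not say what the numbering reflects.

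Elane, whose protease is the closest partner of proteinase 3, did not share that gap. Its ratios were 1.09, 0.881, 1.07 and 1.02 (animals 70, 71, 80 and 82) against 0.985, 1.07, 0.857 and 0.883 (animals 69, 72, 73 and 81). The 8 livers lay within 1.27-fold of each other and the genotypes were intermixed. The genotype difference was -0.10 ± 0.12 (log2, SE), and the spread within genotypes, an SD of 0.143 on the log2 scale, was at percentile 17.6 of all probe sets, against 0.577 and percentile 96.5 for Prtn3.

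Mpo and Ctsg were close to even as well. Mpo ran from 0.788 to 1.05 in txnrd1cond/+ livers and from 0.873 to 1.41 in txnrd1-/- livers, with means of 0.973 ± 0.124 and 1.04 ± 0.252 (SD, n = 4 each) and a log2 difference of 0.07 ± 0.18 (SE). The highest liver was txnrd1-/- animal 73 and the lowest was txnrd1cond/+ animal 70, the animal with the second highest Prtn3. Ctsg ran from 0.913 to 1.04 and from 0.801 to 1.18, with a difference of -0.04 ± 0.14. The sign of Mpo turned without animal 73 (-0.08) or 70 (-0.03), and that of Ctsg without animal 81 (0.05) or 73 (0.02) and with array weights (0.01).

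**Figure D1:**
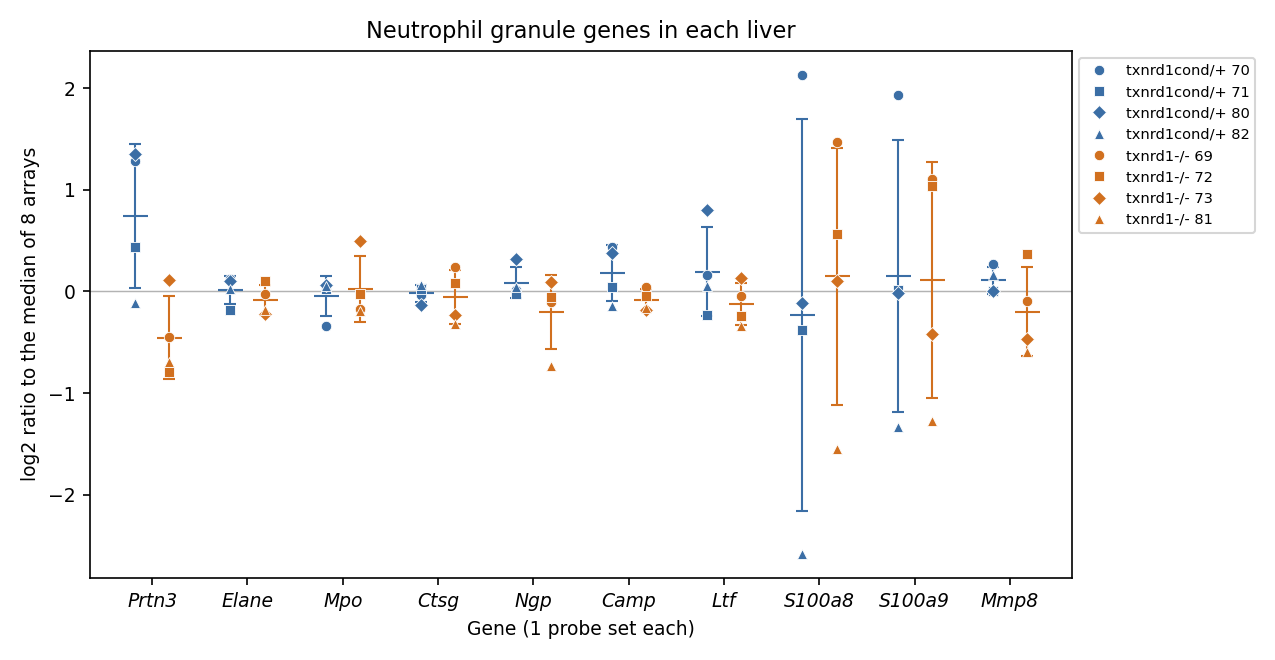
Each point is the log2 ratio of 1 liver to the median of the 8 arrays, for the 10 genes on the horizontal axis, blue for txnrd1cond/+ and orange for txnrd1-/-, with a symbol for each animal; long ticks are the mean and bars the SD over 4 animals of the log2 ratios. Prtn3 has the largest gap between genotypes, the 8 livers lie within 1.27-fold for Elane and 1.48-fold for Ctsg, and S100a8 and S100a9 spread widely within both genotypes.

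The 4 genes of the later granules were all lower in txnrd1-/- livers on average, by much less than Prtn3. Ltf had ratios of 1.11, 0.849, 1.74 and 1.03 in txnrd1cond/+ livers (animals 70, 71, 80 and 82) and 0.966, 0.845, 1.10 and 0.791 in txnrd1-/- livers (animals 69, 72, 73 and 81). Animal 80 was far above the rest, and the remaining livers of both genotypes were intermixed. The log2 difference was -0.32 ± 0.21 (SE). Camp had ratios of 1.35, 1.03, 1.30 and 0.904 against 1.03, 0.968, 0.880 and 0.894 in the same order of animals. Animals 70 and 80, the highest for Prtn3, were also the highest for Camp, animal 71 was level with the highest mutant, and animal 82 lay among the mutants. Its difference was -0.27 ± 0.15.

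Ngp and Mmp8 differed from this in which livers were low. Ngp ran from 0.983 to 1.25 in txnrd1cond/+ livers and from 0.602 to 1.06 in txnrd1-/- livers, where animal 81 was the low value, and the difference was -0.29 ± 0.18 (log2, SE). Mmp8 ran from 1.00 to 1.20 and from 0.660 to 1.29, so that its highest and its lowest liver were both txnrd1-/-, and the difference was -0.31 ± 0.20. Among the 18193 genes ordered from the lowest difference, Ltf was at rank 221, Mmp8 at 248, Ngp at 320 and Camp at 430. None of the 4 reached a 1.5-fold difference.

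After the genotype means were removed, the likeness of each gene to Prtn3 across the 8 livers could be read apart from the genotype gap that chose the genes. The Pearson r with Prtn3 was then 0.732 for Camp, 0.711 for Ltf and 0.651 for S100a8, and 0.439 for Ngp and 0.438 for S100a9. It was 0.143 for Mpo and 0.0909 for Elane, and below 0 for Mmp8 (-0.217) and Ctsg (-0.352). The 2 azurophil proteases beside Prtn3 were thus among the genes least like it within genotypes. With 8 livers, these values are a description and carry no test.

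S100a8 and S100a9, the cytosolic pair, varied most of all, and the variation was between animals of the same genotype. S100a8 had ratios of 4.38, 0.767, 0.925 and 0.167 in txnrd1cond/+ animals 70, 71, 80 and 82, and 2.77, 1.48, 1.07 and 0.341 in txnrd1-/- animals 69, 72, 73 and 81. The highest and the lowest liver, 26.2-fold apart, were both txnrd1cond/+. S100a9 had ratios of 3.81, 1.01, 0.988 and 0.398 against 2.15, 2.05, 0.746 and 0.413 in the same order of animals. Animals 70 and 69 were the highest and 82 and 81 the lowest for both genes within their genotypes. The within-genotype SD was 1.63 for S100a8 and 1.26 for S100a9 on the log2 scale, at percentiles 99.9 and 99.8 of all probe sets.

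In both genes the genotype difference was smaller than its SE. Mean ratios of S100a8 were 1.56 ± 1.91 and 1.42 ± 1.02 (SD, n = 4 each) in txnrd1cond/+ and txnrd1-/- livers, while its log2 difference of 0.38 ± 0.91 (SE) was in the opposite direction. S100a9 had means of 1.55 ± 1.53 and 1.34 ± 0.890 and a log2 difference of -0.04 ± 0.70. The direction of S100a8 turned without animal 82 (-0.40) or 69 (-0.06), with the animal number range as a covariate (-0.18), with array weights (-0.02) and on linear ratios (-0.14), and its difference was 1.17 without animal 70. That of S100a9 turned without animal 70 (0.55), 81 (0.42) or 73 (0.14). The 2 genes varied together from liver to liver, with r of 0.947 (exact permutation p = 0.000694, adjusted p = 0.0312 over 45 pairs) and rho of 0.905 (exact p = 0.00456, adjusted p = 0.205). This was the 1 pair of 45 at an adjusted p of at most 0.05 for r, which was 0.912 without the 2 livers farthest from the median of S100a8 and 0.958 after the genotype means were removed.

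Over the whole set, 8 of 10 genes were lower and 2, Mpo and S100a8, were higher in txnrd1-/- livers, against 48.8% of all probe sets lower. The median log2 difference was -0.18, against 0.00 over all probe sets. The study's thresholds were a 1.5-fold difference and p of at most 0.05, taken here as unadjusted in limma. Its further minimum of raw signal could not be applied to ratios and is left out wherever these thresholds are named. By them 1 of the 10, Prtn3, was lower, where 0.0777% of 45037 probe sets were lower. After Benjamini-Hochberg adjustment 0 of the 10 passed in limma (0.0266% of probe sets did, in either direction). For 0 of the 10 did every txnrd1-/- liver lie below every txnrd1cond/+ liver, which held for 0.562% of probe sets. These counts come from the contrast that chose the genes and are given as a description. In whole liver, fewer neutrophils, less of an mRNA in each neutrophil, and signal from other cells or from background cannot be told apart.

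The arrays also differed in a way that the genotypes did not explain. The arrays carry 14 control features for bacterial BioB, BioC and BioD, which read RNA added to each sample, and 4 for phage Cre, which could in addition read the transgene. These 18 features stood at mean log2 ratios of 0.15, -0.51, 0.35 and -0.19 on the arrays of animals 70, 71, 80 and 82 and 0.28, -0.42, 0.43 and -0.42 on those of 69, 72, 73 and 81. Each genotype thus had 2 arrays with high and 2 with low controls. The Cre features alone had mean log2 ratios of 0.01 in txnrd1cond/+ and 0.03 in txnrd1-/- livers, and without them the same 4 arrays lay above 0. Within both genotypes the arrays with high controls were those with the higher Prtn3, by 1.16 (log2) in txnrd1cond/+ and 0.58 in txnrd1-/- livers. After the genotype means were removed, the correlation with the controls was 0.764 for Prtn3 and 0.845 for Ltf, at percentiles 96.1 and 98.5 of all genes, 0.645 for Ngp, 0.472 for Camp, 0.443 for S100a8, 0.292 for Mpo, 0.254 for S100a9, 0.184 for Elane, -0.038 for Ctsg and -0.161 for Mmp8. With the bacterial features alone it was 0.756 for Prtn3 and 0.825 for Ltf. Both sides hold 2 animals of each genotype. The genotype difference of Prtn3 was -1.49 among the arrays with high controls and -0.91 among those with low controls. These values are parts of the contrast that chose Prtn3 and average to its whole difference, so they are a description and no further support. The part of the controls in the spread of these genes was not tested.

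**Figure D2:**
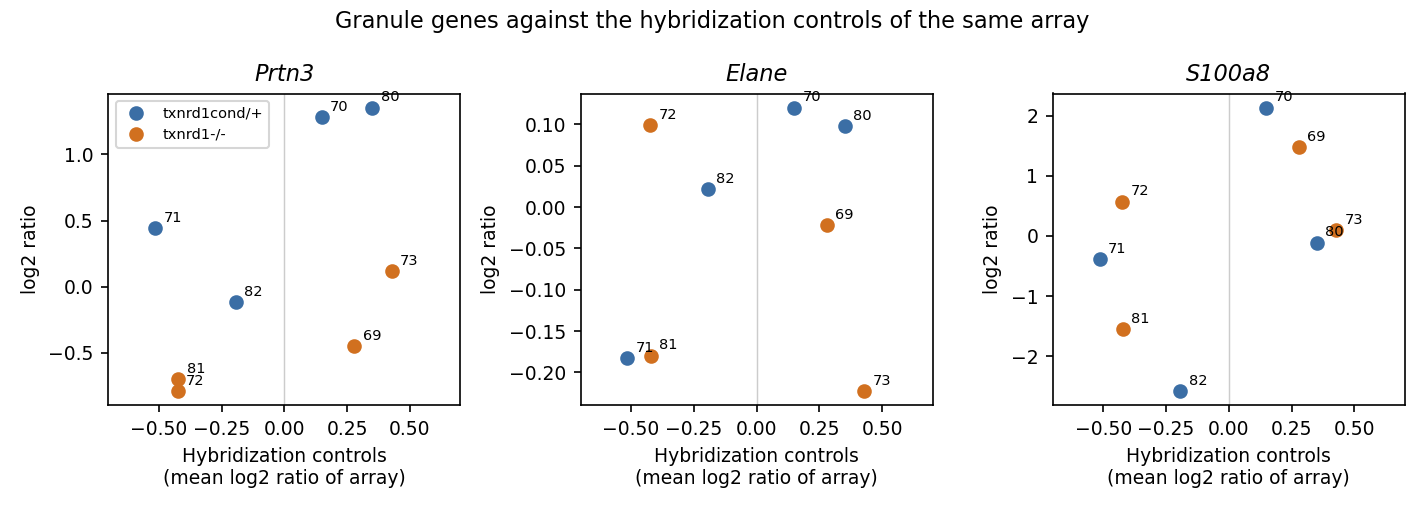
Log2 ratio of Prtn3, Elane and S100a8 (vertical axes, on different scales) against the mean log2 ratio of the 18 hybridization control features on the same array (horizontal axis); each point is 1 animal, blue for txnrd1cond/+ and orange for txnrd1-/-. In both genotypes the 2 livers to the right of 0 have the higher Prtn3. At either side the txnrd1cond/+ livers lie above the txnrd1-/- livers for Prtn3, which was chosen on these same arrays.

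Neutrophil genes outside the 10 were centred close to no difference. Of 56 such genes in lists of early granule, later granule and mature neutrophil genes, 42 were measured, 24 were lower and 18 higher in txnrd1-/- livers, with a median log2 difference of -0.03 (21 lower and 0.00 without animal 70). The 42 ranged from -0.38 to 0.76. Prtn3 was chosen in this contrast and stands at rank 4 from the lowest of 18193 genes, so nearly any such list would hold none as low. At the study's thresholds 1 of the 42 was called, where 0.654% of 18193 genes were, and at the adjusted threshold 0 were, where 0.0824% of genes were. The called gene was Hexa, which encodes a subunit of the lysosomal hexosaminidase and is made in most tissues: it was 1.69-fold higher in txnrd1-/- livers.

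Of the early granule and promyelocyte genes, 3 of 8 measured were lower and 5 higher, with a median of 0.04. Some of them, such as Hexa, are also made outside neutrophils, so this median does not read promyelocytes alone. At the ends of this list were Gusb, the lysosomal glucuronidase (-0.18), and Nkg7, a protein of cytotoxic granules (-0.08), against Hexa (0.76) and Mgst2, a microsomal glutathione transferase (0.43). Of the later granule genes 9 of 17 were lower and 8 higher, with a median of -0.00. Cd177, a surface protein of neutrophil subsets, was lowest (-0.33), followed by the protease inhibitor Slpi (-0.27), while Lcn2, the siderophore-binding lipocalin, was highest (0.70) ahead of Wfdc21 (0.38). Lcn2 is also made by hepatocytes and ran from 0.330 to 1.76 in txnrd1cond/+ livers. Of the mature neutrophil genes 12 of 17 were lower, with a median of -0.09 and 0 called: the oxidase subunit Ncf4 (-0.38) and the cytokine Il1b (-0.30) were at one end, and the receptors Trem3 (0.23) and Fcgr4 (0.22) at the other. Il1b was at 0.15 without animal 70, and Wfdc21 at -0.12 without animal 80.

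Among the regulators and partners of these genes, 2 passed the study's thresholds, both in the list of S100a8 and S100a9 receptors and relatives. Transcription factors of granulocyte production split 5 lower and 4 higher of 9, with a median of -0.02, from Klf4 (-0.20) and Spi1, which encodes PU.1 (-0.16), to Cebpa (0.08) and Cebpd (0.12). Klf4 was at 0.23 without animal 70, and 2 of 9 factors were then lower, with a median of 0.06. Cebpa was at -0.02 without animal 81, and Cebpd turned below 0 without animal 71 or 69. Signals that make or recruit neutrophils were lower for 9 of 13, with a median of -0.14, from the chemokine Cxcl2 (-0.48) and Il6 (-0.25) to Tnf (0.02) and Csf3 (0.08). Without animal 70 both Cxcl2 (0.07) and Il6 (0.02) turned, and the median was -0.01. Tnf turned below 0 without animal 72, 80 or 82. Of 9 genes listed as granule protease inhibitors, 6 were lower, with a median of -0.02. The 6 include Cp (-0.11), the copper protein ceruloplasmin, which is not a protease inhibitor. The largest difference in the list was a higher value of Serpinb1a, a serpin that inhibits elastase, cathepsin G and proteinase 3 (0.55, 1.46-fold, under the fold threshold). Beside it Cstb was at 0.28, and Slpi (-0.27) and Serpina3n (-0.23) were at the other end. Of 8 receptors and relatives of S100a8 and S100a9, 2 were higher at the study's thresholds, which 0.654% of all genes passed. These were S100a10 (0.79), an annexin partner, and Cd36 (1.21), a fatty acid receptor that hepatocytes and endothelial cells also express. S100a10 was at 0.41 without animal 80, under the fold threshold, and Cd36 was at 1.00 or more without any 1 animal. Ager (-0.19), the receptor RAGE, and S100a4 (-0.12) were the lowest there.

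Animal 70, which had the highest S100a8 and S100a9, was also the highest for several of these inflammatory genes. Its ratio was 4.50 for Cxcl2, 3.15 for Il1b, 3.13 for Klf4 and 2.03 for Il6, where the other 3 txnrd1cond/+ livers lay between 0.937 and 1.03 for Cxcl2 and between 0.776 and 1.21 for Il1b. Its Prtn3 ratio of 2.44 was second to that of animal 80, whose Cxcl2 and Il1b ratios were 0.974 and 1.21. Over the 8 fits that each left out 1 animal, the log2 difference of Prtn3 ran from -1.48 to -0.99, and it was -1.02 without animal 70. These fits reuse the arrays on which Prtn3 was chosen. Any part of these inflammatory genes in the Prtn3 values was not tested.

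Markers of most other cells that liver RNA could hold had list medians close to 0, and those of endothelial and stellate cells lay lower. Of the lists of 10 measured monocyte and macrophage, 9 mast cell, eosinophil and basophil, 9 erythroid, 8 stem cell and megakaryocyte, 7 B cell, 8 T and NK cell, 9 hepatocyte and 4 bile duct genes, 0 genes passed the study's thresholds, as 0.654% of all genes did, so that a count of 0 is near the background. Their list medians ran from -0.07 to 0.03. In each of these lists except that of B cells (2 of 7 lower), more genes were lower than higher. Among them, 7 of 8 T and NK cell, 7 of 9 erythroid and 6 of 8 stem cell and megakaryocyte genes were lower. The summed level of the macrophage list, as a mean log2 ratio, was -0.26 to 0.22 in txnrd1cond/+ and -0.21 to 0.10 in txnrd1-/- livers. In that list Marco, a scavenger receptor of macrophages, was lowest (-0.47). Among 8 endothelial and 8 stellate cell genes, 7 and 8 were lower, with medians of -0.14 and -0.12 and 0 called. Without animal 70, 6 and 4 were lower, with medians of -0.13 and -0.01. The medians were -0.32 and -0.25 without animal 82, and -0.07 and -0.10 without animal 80. Of the mast cell, eosinophil and basophil genes, 5 of 9 were lower with all animals and 8 of 9 without animal 70. The endothelial list, as a mean log2 ratio, ran from -0.31 to 0.41 in txnrd1cond/+ and from -0.37 to 0.12 in txnrd1-/- livers. The stellate cell list ran from -0.31 to 0.21 and from -0.25 to 0.18. The 10 granule genes ran from -0.38 to 0.60 and from -0.61 to 0.20 by the same measure. The part of these cells in the granule gene values was not tested. No defining marker can be called absent, since a ratio carries no level.

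**Figure D3:**
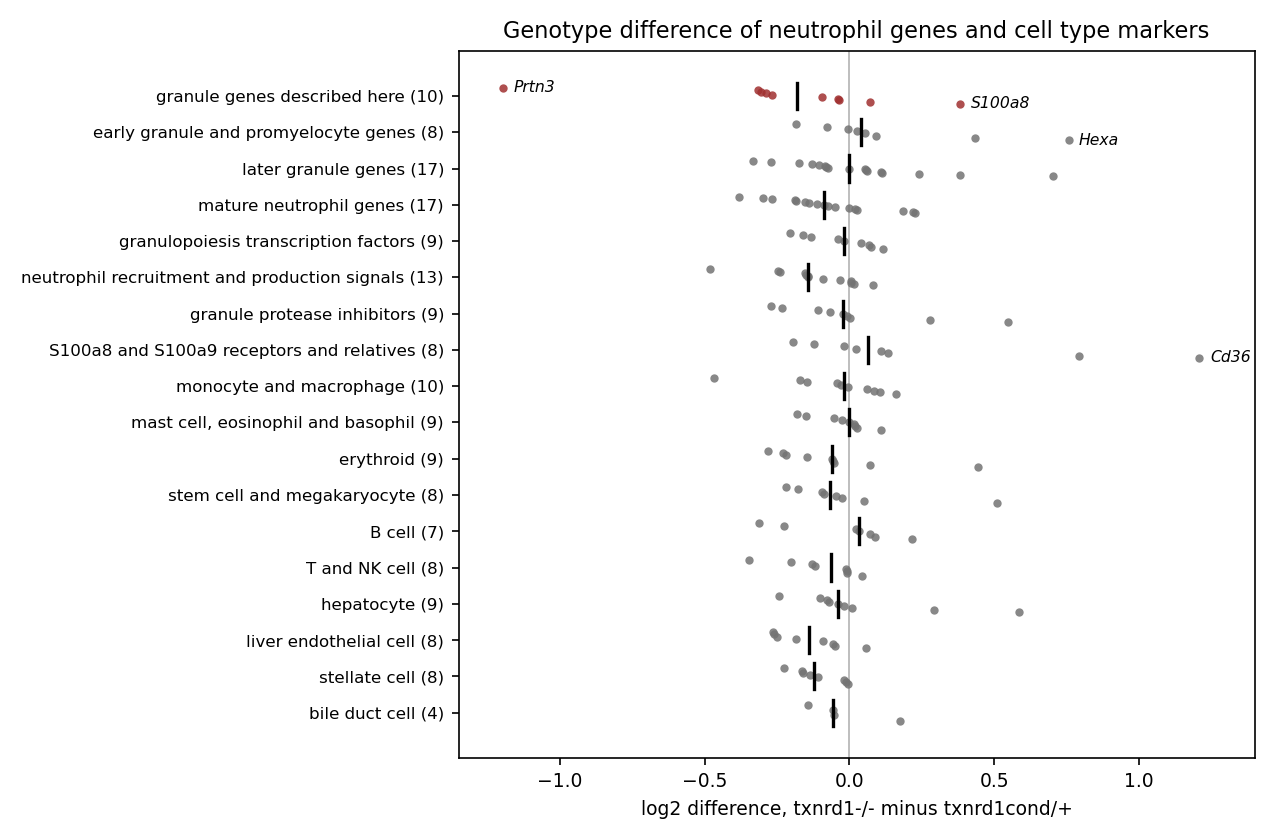
Log2 differences of txnrd1-/- minus txnrd1cond/+ livers (horizontal axis) for the 10 granule genes (red) and for 17 lists of neutrophil genes, their regulators and cell type markers (grey); each point is 1 gene, black ticks are list medians and brackets give the genes measured. Prtn3, at -1.20, was chosen for its difference in this contrast. The lowest value of the other genes is that of Cxcl2 (-0.48, and 0.07 without animal 70).

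The measured genes nearest to Prtn3 and Elane had differences from -0.23 to 0.15. Measured genes before it on chromosome 10 were Palm (-0.03), Misp (0.15), E130317F20Rik (-0.07), Ptbp1, a splicing repressor (-0.03), and Plppr3 (-0.17). After Elane came Med16, a Mediator subunit (0.01), R3hdm4 (0.04), Kiss1r, the kisspeptin receptor (0.07), Arid3a (-0.23) and Wdr18 (0.03). None of these 10 neighbours passed the study's thresholds, which 0.654% of all genes passed. Txnrd1 itself is on chromosome 10. The 108 measured of 177 annotated genes between Elane and Txnrd1 had a median difference of -0.02. They ran from -0.30 for Mfsd12 to 0.56 for Gpx4, the phospholipid hydroperoxide peroxidase, with 0 at the study's thresholds. Both counts of 0 are near the share of all genes and show nothing particular to this stretch. Of the later granule genes, Camp, Ngp and Ltf lie on chromosome 9, with 18 annotated genes between Camp and Ngp and 25 between Ngp and Ltf, and Mmp8 elsewhere on it; Mpo is on chromosome 11 and Ctsg on 14.

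**Figure D4:**
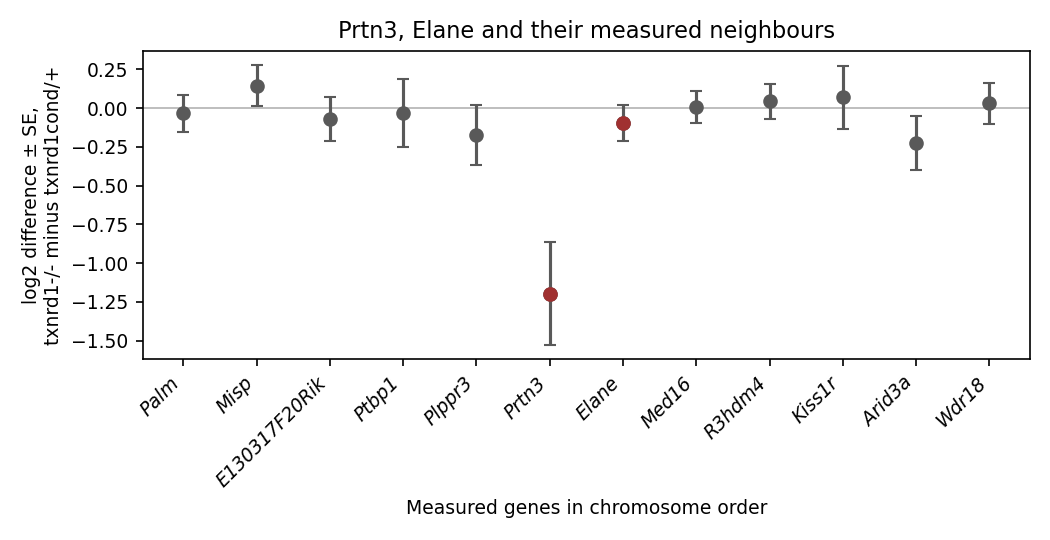
Log2 difference of txnrd1-/- minus txnrd1cond/+ livers (vertical axis, with bars for the SE of limma over 4 livers of each genotype) for Prtn3 and Elane (red) and the 5 nearest measured genes on either side (grey), in chromosome order and not to distance. Prtn3 is at -1.20, and Elane and the other genes lie between -0.23 and 0.15.

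Prtn3 ordered the 8 livers much like several genes that are no part of the neutrophil program. The closest by Pearson correlation over the 8 arrays, of all genes measured, were Platr10, a noncoding RNA (r 0.959), Ext1, an enzyme of heparan sulfate synthesis (0.958), Slc39a14, a zinc transporter (0.946), Msrb3, a methionine sulfoxide reductase (0.938), and Afm, the plasma protein afamin (0.936). After the genotype means were removed these values were 0.945, 0.893, 0.919, 0.843 and 0.864. The 5 genes shared the high values of animals 70 and 80 on a smaller scale: their genotype differences ran from -0.34 for Msrb3 and Slc39a14 to -0.18 for Ext1. The mean of the 10 genes, to which S100a8 and S100a9 with their wide spread contribute most, followed the clock gene Per1 (r 0.980), Hs6st1, another enzyme of heparan sulfate synthesis (0.975), the transcription factors Foxo1 (0.954) and Stat3 (0.952), and Nipal1 (0.949). Per1 was at 1.88 in animal 70 and 0.447 in animal 81, the animals with the highest and the lowest mean over the 10 genes. All 8 arrays share these correlations, which were picked from all genes as the highest and carry no test.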

How the data were processed

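Total liver RNA of 8 mice was labelled and hybridized to 1 Affymetrix mouse 430 2.0 array per animal, and each animal is 1 replicate, so that precision is set by 4 arrays a genotype. The authors deposited linear ratios to approximately the 8-array median of each probe set; the submitters' processing notes name RMA and the methods name GeneSpring. No signal filter could be applied. After 64 array controls were left out, log2 ratios of 45037 probe sets were fitted by genotype in R 4.3.3 with limma 3.58.1 (lmFit, then eBayes with 6 residual degrees of freedom, 2-sided), the p-values were adjusted over all of them by Benjamini-Hochberg, and the fit was run again over 18193 genes, each averaged over the probe sets that name it alone (34945 probe sets; 932 with several symbols and 9160 unnamed were not used for genes, and 5 values were empty). The adjusted threshold is 0.05 together with 1.5-fold. Correlations between genes used all 40320 pairings of the 8 arrays (scipy 1.17.1, 2-sided). Probe set names came from the platform annotation, brought up to date with RefSeq of GRCm38.p6. The 10 genes and all lists were chosen with earlier results of these data known. Genes named are the 10, the called genes and the 2 largest differences in each direction of the lists of neutrophil genes, regulators and partners, with some of the other cell type lists given by their counts; the 5 genes most like Prtn3 or the mean; 5 measured neighbours on each side; and Txnrd1. Mfsd12 and Gpx4 were named after their values were seen. Alternatives were other scalings, linear ratios, robust and weighted fits, a test of each probe set alone, the animal number range as a covariate and leaving out each animal, and, added after seeing the data, the side of the hybridization controls as a covariate, these controls without the Cre features, and list genes without each animal. The code was tested on simulated data.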

Additional observations from a re-analysis of the deposited data

Results flagged for a closer look

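Of 20 groups of 4 livers, 1 for each of the 10 genes in each genotype, 1 held a liver far from the other 3, and chance gives about 1 in 20. This was Mpo in txnrd1cond/+ animal 70, at a ratio of 0.788 where the other livers of its genotype lay between 1.02 and 1.05: its gap to the nearest liver was 0.898 of the group's whole range.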

How the results depend on the processing

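Prtn3 was lower at the study's thresholds under all 16 alternatives, and no other gene of the 10 was. These fits reuse the arrays on which Prtn3 was chosen, so the count is a description and no further support. The side of the hybridization controls is balanced between the genotypes, so as a covariate it could not change the difference. No gene of the 10 passed the adjusted threshold under any. The log2 difference of Prtn3 ran from -1.48 to -0.99 without 1 animal and from -1.30 to -1.20 under the other settings. The median over the 10 genes ran from -0.33 to -0.09 without 1 animal, the ends being without animal 82 and without animal 81, and from -0.29 to -0.18 otherwise. Elane, Ngp, Camp, Ltf and Mmp8 kept their direction in each fit. Without 1 animal, Mpo, Ctsg and S100a8 kept theirs in 6 of 8 fits and S100a9 in 5 of 8; under the other settings S100a8 kept it in 3 of 6 and Ctsg in 5 of 6. Of all probe sets, 12 passed the adjusted threshold, against 1 with linear ratios, 19 with array weights, 0 with the test of each probe set alone (182 of which were at the study's thresholds), and 3 to 8 without 1 animal. Without the raw signal minimum of the study, 253 probe sets were called at its other thresholds, which is not the study's own count. The number was 206 to 479 without 1 animal (402 without animal 70 and 479 without animal 72). The causes were not tested. Each gene has 1 probe set with 1 symbol, so the choice of probe set gave no other value. No paired analysis was possible because the genotypes share no replicate numbers. Ratios keep no signal level and do not show which of these probe sets stood above background.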
